A study of Mus musculus with 17 samples.

Results

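Interferon-inducible GTPases are the subject here: 10 mouse genes of the guanylate-binding protein family (Gbp2, Gbp3, Gbp4, Gbp6, Gbp7) and of the immunity-related GTPase family (Igtp, Irgm1, Irgm2, Iigp1, Ifi47), followed through 4 states of CD8 T cells. They were chosen by name, as the probes of the non-normalized array table whose platform gene symbol is one of the 10. That rule found 19 of the 45281 probes. A probe was kept when its signal lay above the array's background on at least 3 of 17 arrays. By this rule 12 of the 19 probes were kept, and 7 of the 10 genes were among the 10246 genes tested.

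All cells came from OT-I mice of C57Bl/6 background aged 2 to 6 months. Their CD8 T cells share 1 transgenic antigen receptor, which recognises an ovalbumin (OVA) peptide. Naive cells (n = 5) and memory cells (n = 3) were taken from the spleen, the latter 3 months after infection with Listeria monocytogenes OVA. Effector cells (Teff, n = 5) had been activated by dendritic cells, in coculture with splenic dendritic cells per the labels of 4 arrays, while that of Teff 8 names the spleen. LSEC-primed cells (Tpm, n = 4) came from coculture with LSEC, liver sinusoidal endothelial cells, which line the liver's capillaries and present antigen. The labels do not say whether the arrays of a group stand for separate mice or cultures, so each p-value measures the spread between these samples, which may be technical. Each array is named by its group and its sample number.

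Interferon-gamma, released by activated T cells and natural killer cells, binds the receptor made of Ifngr1 and Ifngr2, whose kinases Jak1 and Jak2 activate transcription at gamma-activated sequences. A wave of secondary factors, among them Irf1, then acts on interferon-stimulated response elements. Guanylate-binding proteins and immunity-related GTPases are among the most strongly induced products of this pathway in mouse cells, where they coat and break open the vacuoles that hold bacteria and parasites. Igtp (also called Irgm3), Irgm1 and Irgm2 are the regulatory members, which sit on the cell's own membranes and hold effector members such as Iigp1 inactive there. In mice, Irgm1 is also needed for some activated T cells to survive exposure to interferon-gamma, which was not examined for the CD8 T cells here.

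The promoters are shown because the members did not share 1 pattern across T-cell states, although all belong to the same response. RefSeq promoter windows of GRCm38.p6 ran from 250 bases before to 50 bases after the start. In all, 8 windows of 7 members were used, Gbp3 having 2. Gbp4, Gbp6 and Iigp1 are not among these members, and any window of Iigp1 was left out of the counts. Each of the 8 windows was searched on both strands for the gamma-activated sequence TTCNNNGAA. They were also searched for the core of the interferon-stimulated response element, GAAA and again GAAA with any 2 bases between. The first was in 3 of 8 windows and the second in 6 of 8, against 8.3% and 3.44% of 32851 promoter windows of the same length. Both were in 3 of 8 windows, against 0.454% of all. Capitals mark the matches in the windows of Igtp (chr11:58199306-58199605, plus strand), Irgm2 (chr11:58214727-58215026, plus), Gbp2 (chr3:142620413-142620712, plus), Gbp7 (chr3:142530086-142530385, plus) and Irgm1 (chr11:48871371-48871670, minus), each printed 5′ to 3′.
Igtp: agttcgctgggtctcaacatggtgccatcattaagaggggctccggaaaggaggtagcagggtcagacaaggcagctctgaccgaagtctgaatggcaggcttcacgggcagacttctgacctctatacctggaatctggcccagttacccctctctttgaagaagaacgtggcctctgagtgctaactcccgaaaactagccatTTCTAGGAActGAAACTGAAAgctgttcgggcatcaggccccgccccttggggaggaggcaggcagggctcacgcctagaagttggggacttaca
Irgm2: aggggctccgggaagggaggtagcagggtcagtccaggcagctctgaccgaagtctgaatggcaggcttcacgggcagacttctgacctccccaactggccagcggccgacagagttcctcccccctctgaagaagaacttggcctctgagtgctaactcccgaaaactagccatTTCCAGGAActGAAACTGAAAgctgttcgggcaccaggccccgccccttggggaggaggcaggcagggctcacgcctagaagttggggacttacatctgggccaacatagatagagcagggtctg
Gbp2: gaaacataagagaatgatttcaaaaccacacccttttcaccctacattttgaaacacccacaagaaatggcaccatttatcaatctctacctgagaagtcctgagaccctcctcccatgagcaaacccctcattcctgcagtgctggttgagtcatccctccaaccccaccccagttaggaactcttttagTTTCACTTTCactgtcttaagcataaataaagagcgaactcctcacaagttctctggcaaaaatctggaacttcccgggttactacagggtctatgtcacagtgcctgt
Gbp7: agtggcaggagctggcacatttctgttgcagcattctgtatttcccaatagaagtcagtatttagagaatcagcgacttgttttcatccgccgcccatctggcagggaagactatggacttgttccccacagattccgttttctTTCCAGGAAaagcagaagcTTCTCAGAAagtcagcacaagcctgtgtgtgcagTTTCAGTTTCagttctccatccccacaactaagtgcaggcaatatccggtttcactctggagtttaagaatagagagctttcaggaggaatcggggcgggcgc
Irgm1: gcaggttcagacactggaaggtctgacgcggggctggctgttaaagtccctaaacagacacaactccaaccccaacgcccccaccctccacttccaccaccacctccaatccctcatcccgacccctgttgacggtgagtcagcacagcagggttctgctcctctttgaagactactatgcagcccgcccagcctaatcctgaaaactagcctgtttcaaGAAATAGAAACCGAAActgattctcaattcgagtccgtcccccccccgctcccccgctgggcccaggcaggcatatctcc

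The windows of Igtp and Irgm2, neighbours on chromosome 11, shared a run of 61 identical bases. In Igtp the gamma-activated sequence ran from -45 to -37 and the response element core from -34 to -25, counted from the start. In Irgm2 the gamma-activated sequence, TTCCAGGAA against TTCTAGGAA in Igtp, lay from -75 to -67. The core, GAAACTGAAA in both, lay from -64 to -55 there. The shared run lies after both motifs in each of these windows. The motifs and the bases on either side of them are also nearly identical between these windows. The matches in Igtp and Irgm2 are therefore not independent of each other. Gbp7 held 2 gamma-activated sequences, starting at -106 and -87, and 1 core starting at -53. Gbp2 held a core at -59 to -50 and no gamma-activated sequence in this window. Irgm1 held 2 cores that overlap each other, starting at -30 and -24, and so did the first Gbp3 window, at -45 and -39. No match to either was in the window of Ifi47 or in the second window of Gbp3. A match is a string of letters and was not tested as a binding site here.

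The arrays were checked before the members were compared. Mean signals lay between 227 and 471 on 15 arrays and at 140 and 96.7 on memory 3 and memory 5, where 29.9% and 19.9% of probes were above background. Every comparison with memory cells therefore rests on 2 dim arrays out of 3. Beside each member's called difference from memory cells stands its value on memory 9 alone; that is 1 array, so any p-value given with it takes its spread from the other groups and assumes that memory cells vary like them. Of the CD8 T-cell markers Cd3e, Cd3g, Cd8b1, Cd2 and Cd247 were above background on all 17 arrays and Cd5 on 1 naive and 2 Tpm arrays. Cd8a was not kept, being above background on fewer than 3 arrays. Values below are log2 of the background-corrected, quantile-normalized intensity plus 16, which understates changes of dim genes, and levels of different genes are not comparable. Calls of higher and lower required both an adjusted p below 0.05 and at least a 2-fold difference. In bulk RNA, fewer cells of a type and less RNA per cell cannot be told apart.

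In Tpm, the LSEC-primed cells, 4 of the 7 measured members were higher than in naive cells and none was lower: Igtp, Gbp3, Gbp2 and Irgm2, by 2.95-fold to 4.55-fold. The background was 8.68% of 10246 genes higher and 4.99% lower. The median difference of the 7 members was 1.56 on the log2 scale, and that of all genes 0.06. Against Teff, 6 of 7 members were higher in Tpm, where 7.73% of all genes were higher and 7.99% lower, with a median of 1.38 for the members and 0.04 for all genes. Teff and naive cells differed in 1 member, Gbp7, which was lower in Teff (0 of 7 members higher against 13.8% of genes, and 1 of 7 lower against 11%). The median there was -0.18 for the members and 0.00 for all genes.

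**Figure D1:**
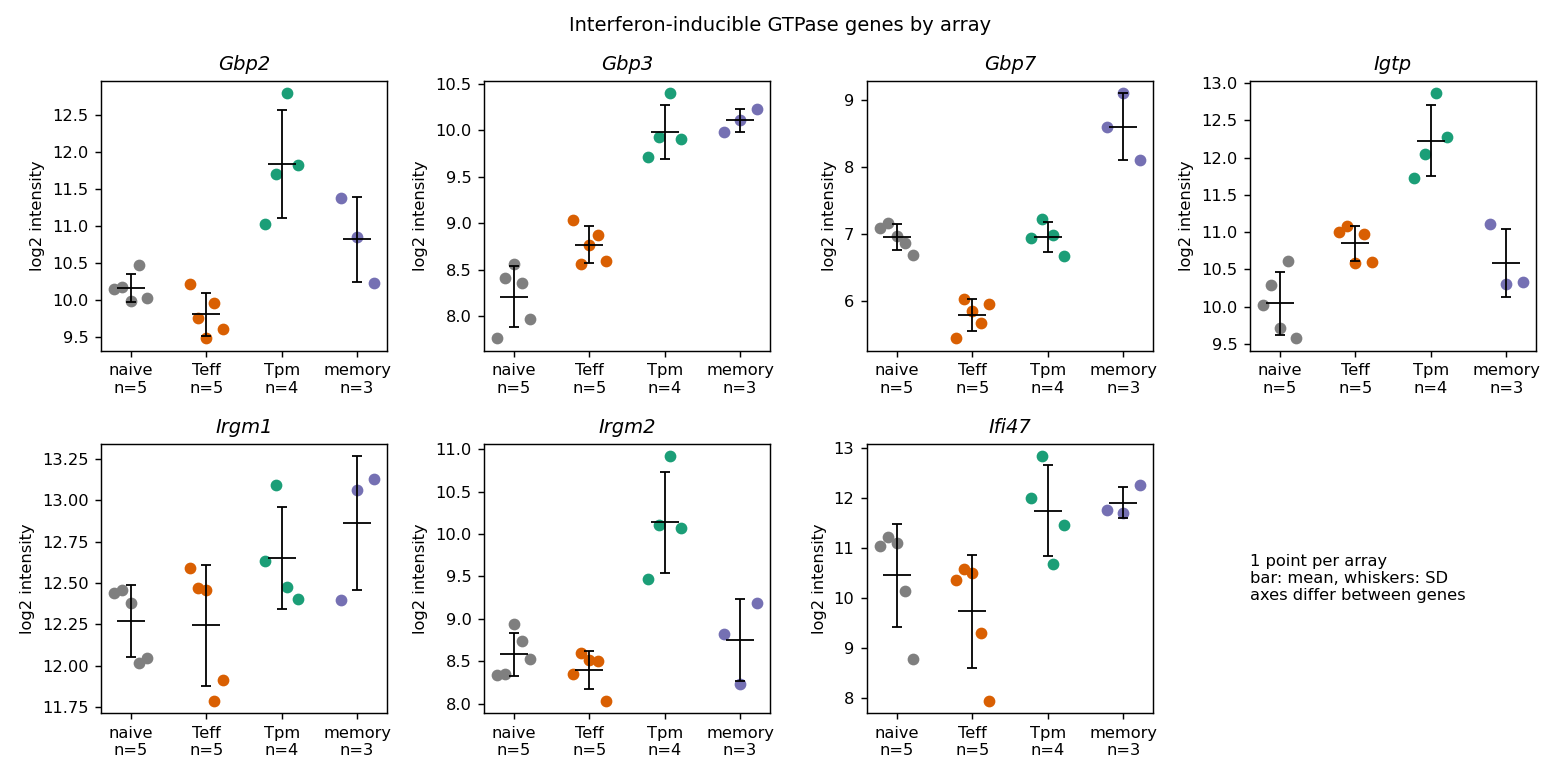
Log2 intensity (vertical axes, with a separate scale for each gene) of the 7 measured members on each of 17 arrays, grouped on the horizontal axes. Points are arrays, bars are means and whiskers are SDs; Gbp2, Igtp and Irgm2 have their highest means in Tpm, Gbp3 in Tpm and memory cells alike, and Gbp7 in memory cells with its lowest in Teff.

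Igtp, Irgm2 and Gbp2 shared 1 pattern, with the highest mean in Tpm and no called difference between naive cells and Teff. Igtp, a regulatory GTPase of the endoplasmic reticulum, stood at 11.73, 12.05, 12.86 and 12.28 on Tpm 4, 7, 14 and 15. It ran from 9.57 (naive 13) through a median of 10.03 to 10.61 (naive 12) in naive cells and from 10.59 to 11.09 in Teff, and was 11.11, 10.31 and 10.33 on memory 3, 5 and 9. Every Tpm array was above every array of the other groups. Tpm exceeded naive cells by 2.19 ± 0.26 (SE; limma adjusted p = 6.13e-06), Teff by 1.38 ± 0.26 (adjusted p = 0.000471) and memory cells by 1.65 ± 0.29 (adjusted p = 0.000479). From memory 9 alone the difference was 1.90.

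The order of Igtp means was naive (10.04 ± 0.42, SD, n = 5), memory (10.58 ± 0.46, SD, n = 3), Teff (10.85 ± 0.24, SD, n = 5) and Tpm (12.23 ± 0.48, SD, n = 4). Memory cells differed from naive cells by 0.54 ± 0.28 (SE, adjusted p = 0.182) and Teff from memory cells by 0.27 ± 0.28 (adjusted p = 0.475), neither past the test. Teff exceeded naive cells by 0.81 (adjusted p = 0.0106), short of 2-fold, with overlapping arrays.

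Irgm2, a regulatory GTPase of the Golgi, followed the same course. Its Tpm values were 9.47, 10.10, 10.92 and 10.07 on arrays 4, 7, 14 and 15, against 8.34 to 8.93 in naive cells and 8.03 to 8.60 in Teff. The memory arrays 3, 5 and 9 gave 8.82, 8.23 and 9.19. As with Igtp, no Tpm array reached down to any array of another group. The differences were 1.56 ± 0.25 (SE, adjusted p = 0.000179) from naive cells, 1.74 ± 0.25 (adjusted p = 4.82e-05) from Teff and 1.39 ± 0.29 (adjusted p = 0.00177) from memory cells. Without the 2 dim memory arrays the last was 0.95 (adjusted p = 0.13), and with only Tpm and memory arrays in the fit its adjusted p was 0.0556. The means of the other groups, Teff 8.40, naive 8.58 and memory 8.75, did not differ beyond the test (adjusted p from 0.339 to 0.717).

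Gbp2, a guanylate-binding protein that binds vacuole membranes through a lipid anchor, was 11.02, 11.70, 12.79 and 11.83 on Tpm 4, 7, 14 and 15. Naive cells ran from 9.99 to 10.47, Teff from 9.48 to 10.22, and memory 3, 5 and 9 gave 11.37, 10.85 and 10.23. Tpm did not overlap naive cells or Teff, but memory 3 stood above Tpm 4. Tpm exceeded naive cells by 1.67 ± 0.29 (SE, adjusted p = 0.000308) and Teff by 2.03 ± 0.29 (adjusted p = 3.75e-05). The difference from memory cells, 1.02 ± 0.33 (adjusted p = 0.0305), lost its call without memory 5 (1.03, adjusted p = 0.0654), memory 9 (0.72, adjusted p = 0.14), Tpm 14 (0.70, adjusted p = 0.0867) or Tpm 15 (1.02, adjusted p = 0.0541). It was also not called with only those groups in the fit (adjusted p = 0.192), with the mean of all probes (0.64, adjusted p = 0.0993), with a term for sample numbers (0.86, adjusted p = 0.0698), with no filter on dim probes (adjusted p = 0.0526) or without background correction (0.99, adjusted p = 0.0269, short of 2-fold). Median scaling gave 2.18 (adjusted p = 0.000101), and memory 9 alone 1.61. The size of this difference is therefore not settled.

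A second kept Gbp2 probe was above background on 1 naive, 0 Teff, 2 Tpm and 1 memory arrays, with means of 4.58, 4.40, 5.09 and 4.84. Its differences, 0.51 between Tpm and naive cells and 0.69 between Tpm and Teff, passed no test (adjusted p = 0.301 and 0.137 over 16152 probes). Another probe was not kept and was above background on Tpm 7 and Tpm 14 only. The Gbp2 result thus rests on its bright probe.

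Among the 4 Tpm arrays, Tpm 14 was highest and Tpm 4 lowest for Igtp, Irgm2, Gbp2 and Gbp3. Without Tpm 14 the differences from naive cells were 1.98 for Igtp (adjusted p = 2.52e-05), 1.64 for Gbp3 (adjusted p = 8.06e-06), 1.36 for Gbp2 (adjusted p = 0.000835) and 1.30 for Irgm2 (adjusted p = 0.000554), and all 4 calls held.

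Gbp3 had another pattern, high in Tpm and memory cells alike after quantile normalization. This guanylate-binding protein was 9.71, 9.93, 10.40 and 9.90 on Tpm 4, 7, 14 and 15 and 9.98, 10.11 and 10.23 on memory 3, 5 and 9. Teff ran from 8.56 to 9.04 and naive cells from 7.76 to 8.56, the highest naive array, naive 11, just reaching the lowest of Teff. Tpm exceeded naive cells by 1.78 ± 0.19 (SE, adjusted p = 1.97e-06) and Teff by 1.22 ± 0.19 (adjusted p = 7.76e-05), and memory cells exceeded naive cells by 1.90 ± 0.20 (adjusted p = 2.64e-06). Tpm and memory cells differed by -0.12 ± 0.21 (adjusted p = 0.729), which misses the test and has no settled sign. Teff was 0.56 above naive cells (adjusted p = 0.0157), short of 2-fold.

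The second Gbp3 probe gave 1.76 for Tpm over naive cells, 1.60 for memory over naive cells and 1.40 for Tpm over Teff. All 3 were called (adjusted p = 2.57e-06, 2.04e-05 and 2.4e-05 over 16152 probes). Both probes thus gave the same calls in these comparisons. Memory 9 alone stood 2.02 above the naive mean, with no memory spread to set it against. Teff lay below memory cells (-1.34, adjusted p = 4.18e-05), by -1.46 on memory 9 alone. The difference between memory and naive cells fell short of 2-fold when arrays were scaled to their medians instead of quantile normalized (0.88, adjusted p = 0.0443). With that scaling Tpm stood 0.97 above memory cells (adjusted p = 0.0338), also short of 2-fold. Teff against memory cells was then -0.28 (adjusted p = 0.49) and not called.

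Gbp7 set memory cells apart in the other direction from Tpm. This guanylate-binding protein was 8.59, 9.09 and 8.10 on memory 3, 5 and 9. Tpm (6.93, 7.22, 6.98 and 6.66 on arrays 4, 7, 14 and 15) and naive cells (6.67 to 7.16) covered the same range, and Teff lay lowest, from 5.44 to 6.03. Only Tpm and naive cells overlapped. Memory cells exceeded naive cells by 1.65 ± 0.21 (SE, adjusted p = 2.41e-05), and Tpm differed from memory cells by -1.65 ± 0.22 (adjusted p = 4.09e-05). Teff lay below naive cells by 1.17 ± 0.18 (log2 difference -1.17, adjusted p = 5.31e-05) and Tpm above Teff by 1.17 ± 0.20 (adjusted p = 0.000187). The largest gap among the members in any comparison was that between Teff and memory cells, -2.81 ± 0.21 (adjusted p = 1.48e-08), or 7.03-fold.

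Tpm and naive cells differed by 0.00 ± 0.20 in Gbp7 (adjusted p = 0.998), a sign that turned with single arrays left out. Gbp7 is dim in Teff, and an offset of 50 brought the Teff differences to -0.82 from naive cells and 0.82 from Tpm (adjusted p = 0.000163 and 0.00051), short of 2-fold. On memory 9 alone the differences were 1.15 from naive cells, -1.15 for Tpm against memory and -2.32 for Teff against memory. With median scaling the first and the second were 0.83 and -0.78 (adjusted p = 0.0207 and 0.0319). The dimmer second probe gave 0.53 for memory over naive cells (adjusted p = 0.394) and -0.29 for Tpm against memory cells (adjusted p = 0.691), neither called. For Teff against memory cells it gave -1.48 (adjusted p = 0.0076), and -2.35 on memory 9 alone.

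**Figure D2:**
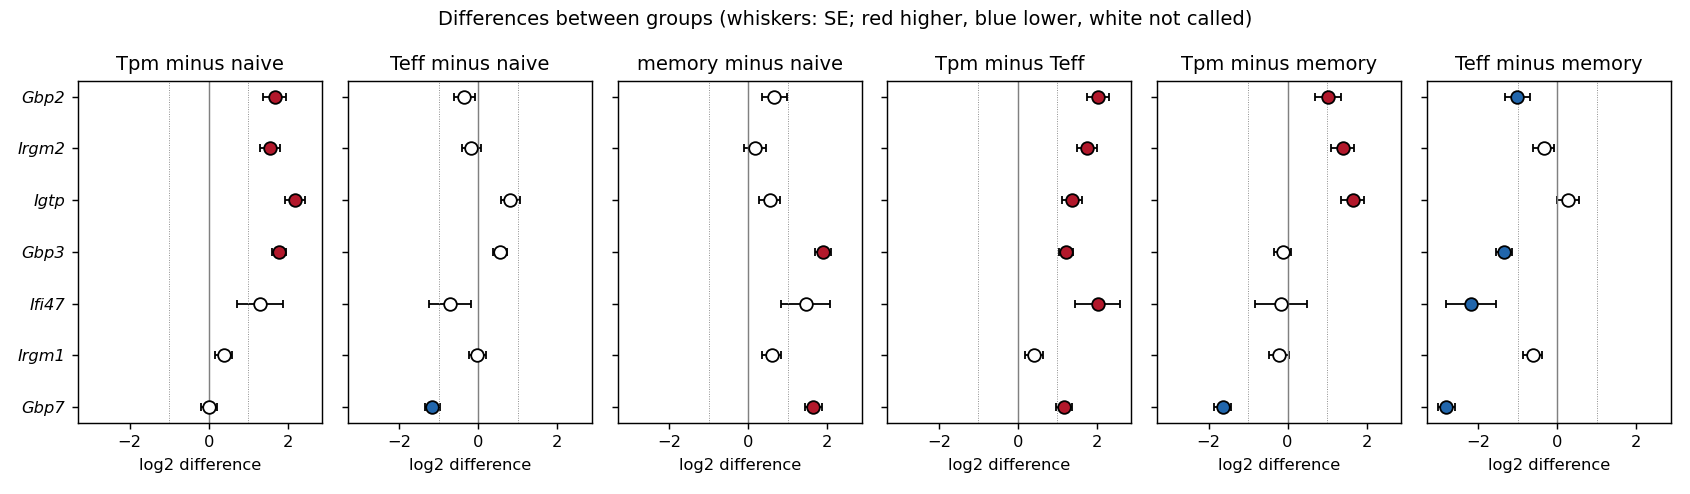
Log2 differences (horizontal axes) of the 7 measured members in the 6 comparisons of groups, with genes on the vertical axis, whiskers for the SE and dotted lines at 2-fold. Red points are called higher, blue lower and white neither; Gbp2, Irgm2 and Igtp are red in all 3 Tpm comparisons, and Gbp7 is blue in Tpm against memory cells.

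Across all members, memory cells were higher than naive cells in 2 of 7, Gbp3 and Gbp7 (background 5.78% of genes higher and 7.22% lower), and lower in none. Tpm was higher than memory cells in 3 of 7 (background 9.93%) and lower in 1 of 7 (5.34%). Teff was lower than memory cells in 4 of 7, namely Gbp7, Ifi47, Gbp3 and Gbp2, and higher in none, where 11% of genes were lower and 15.8% higher. The members' medians were 0.66 in memory against naive cells (all genes -0.05), -0.12 in Tpm against memory cells (0.14) and -1.01 in Teff against memory cells (0.08). The Gbp2 difference between Teff and memory cells (-1.01, adjusted p = 0.0148) lost its call without memory 3 (-0.73, adjusted p = 0.0966), and fell short of 2-fold without memory 5 (adjusted p = 0.04), Teff 10 (-0.93, adjusted p = 0.0346) or Teff 17 (-0.97, adjusted p = 0.0317). It was -0.42 (adjusted p = 0.517) on memory 9 alone. With median scaling Teff was lower than memory cells in 1 member, Gbp7, and higher in 1, Igtp (1.33, adjusted p = 0.0049). That scaling also moved the split of all genes from 592 higher and 740 lower to 517 and 1984 in memory against naive cells. In Tpm against memory cells the split went from 1017 and 547 to 2408 and 495.

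Ifi47, an effector GTPase also called Irgd, had a larger SD than any other member in naive cells (1.03), Teff (1.13) and Tpm (0.91), though not in memory cells (0.31). It was 11.04, 11.23 and 11.09 on naive 1, 2 and 11 but 10.15 on naive 12 and 8.77 on naive 13. In Teff it was 10.35, 10.58 and 10.51 on arrays 6, 8 and 10, then 9.29 on Teff 16 and 7.93 on Teff 17. Tpm 4 and 7 gave 12.01 and 12.85, and Tpm 14 and 15 gave 10.69 and 11.47. In each of these groups the arrays with sample numbers 12 to 17 were the lowest, and the memory arrays, at 11.77, 11.70 and 12.27, all carry lower numbers.

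With all arrays in 1 fit, Ifi47 was higher in Tpm than in Teff by 2.02 ± 0.57 (SE, adjusted p = 0.0121) and lower in Teff than in memory cells (-2.18 ± 0.63, adjusted p = 0.00904). The first call was lost without Tpm 7 (1.66, adjusted p = 0.0511), and the second with memory 9 alone (-2.54, adjusted p = 0.0601). The difference of 1.30 between Tpm and naive cells did not pass (adjusted p = 0.107), nor did that of 1.46 between memory and naive cells (adjusted p = 0.107), whose arrays did not overlap.

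Because the shift by sample number was seen in the data, a term for arrays 12 to 17 against 1 to 11 was added. The labels do not call these numbers a batch. For Ifi47, whose values prompted it, the term was -1.64, given as a description with no test. It was -0.49 for Irgm1 (adjusted p = 0.0257), and did not pass for the other 5 members (adjusted p from 0.432 to 0.886). It passed an adjusted p of 0.05 for 806 of all genes. With the term, Ifi47 was higher in Tpm than in naive cells by 1.46 and than in Teff by 2.19. Within the sets, Tpm exceeded naive cells in Ifi47 by 1.31 (2 against 3 arrays) among numbers 1 to 11. Among 12 to 17 it was 1.62 (2 against 2). These Ifi47 values are also given with no test, since the gene's own values prompted the term. For Igtp the values within the sets were 1.88 and 2.48, for Gbp2 1.26 and 2.06, for Irgm2 1.24 and 1.86 and for Gbp3 1.58 and 1.99. Among numbers 1 to 11, Tpm exceeded Teff by 0.99 in Igtp (adjusted p = 0.0397), short of 2-fold, and by 1.54 in Gbp2, 1.30 in Irgm2 and 1.04 in Gbp3 (adjusted p from 0.0104 to 0.0198). Against memory cells in that set, Tpm was higher by 1.30 in Igtp (adjusted p = 0.0135) and 1.04 in Irgm2 (adjusted p = 0.0466), while Gbp2 differed by 0.54 (adjusted p = 0.318). What the shift by number stands for was not tested.

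**Figure D3:**
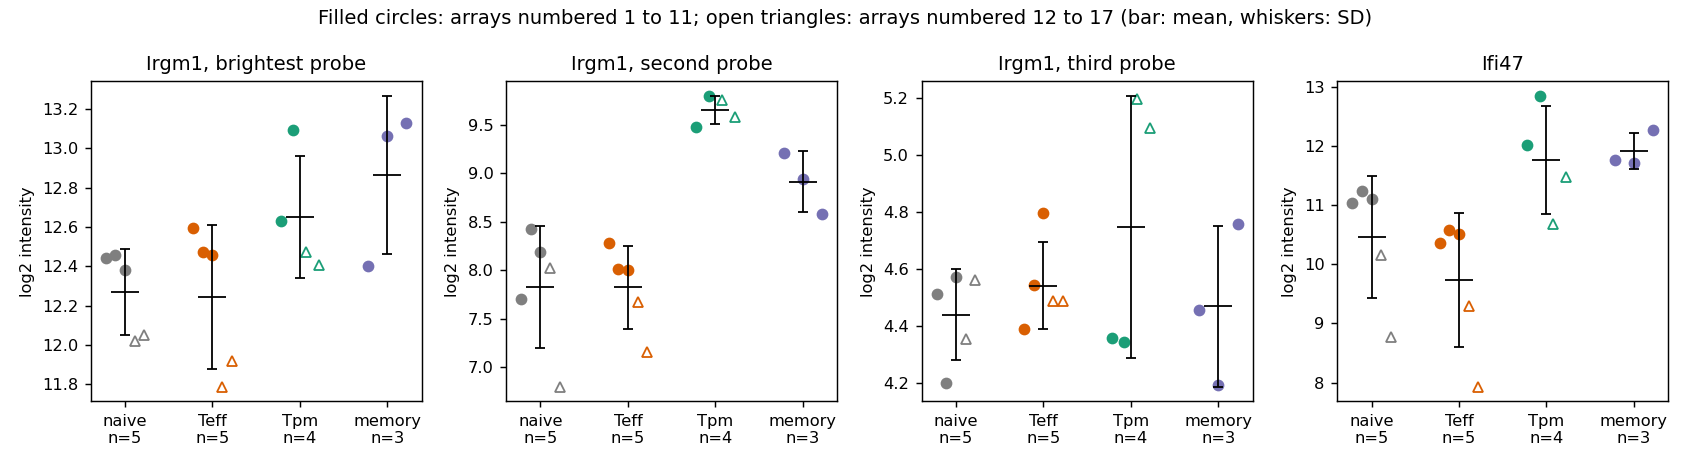
Log2 intensity (vertical axes) of the 3 kept Irgm1 probes and of Ifi47 by group, with filled circles for arrays numbered 1 to 11, open triangles for those numbered 12 to 17, and bars and whiskers for mean and SD. The second Irgm1 probe separates Tpm (9.48 to 9.79) from naive cells (6.80 to 8.42), the brightest probe does not, and in Ifi47 the triangles lie lowest in each group that has them.

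The result for Irgm1, another regulatory GTPase, depended on the probe. The brightest of its 3 kept probes, which stands for the gene in the counts above, gave 12.02 to 12.46 in naive cells, 11.79 to 12.59 in Teff, 12.41 to 13.10 in Tpm and 12.40 to 13.13 in memory cells. All groups overlapped, and no comparison was called, with differences from -0.62 (Teff against memory cells, adjusted p = 0.0429) to 0.60 (memory against naive cells, adjusted p = 0.0814).

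The second Irgm1 probe was above background on all 17 arrays. It stood at 9.48, 9.79, 9.76 and 9.58 on Tpm 4, 7, 14 and 15, at 9.21, 8.94 and 8.58 on memory 3, 5 and 9, from 6.80 to 8.42 in naive cells and from 7.16 to 8.28 in Teff. Tpm lay above all other arrays, and memory cells above all naive and Teff arrays. By this probe Tpm exceeded naive cells by 1.83 ± 0.28 (SE, adjusted p = 0.000138 over 16152 probes) and Teff by 1.83 (adjusted p = 0.000109), and memory cells exceeded naive cells by 1.09 (adjusted p = 0.0191). Teff lay below memory cells by this probe (-1.09, adjusted p = 0.00972). On memory 9 alone the differences were 0.76 for memory over naive cells and -0.76 for Teff against memory cells. Tpm differed from memory cells by 0.74 (adjusted p = 0.121), which did not pass. The dimmest probe, above background on 1 Teff and 2 Tpm arrays, gave no call. The probes' sequences were not used here, so which transcripts each detects was not tested, and the test of this probe was added after its values were seen.

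The other 3 members were near or below background. The single probe of Gbp4 was above background on Tpm 4 alone, with 4.85 there and group means of 4.35 in naive cells, 4.33 in Teff, 4.58 in Tpm and 4.40 in memory cells. The single probe of Gbp6 was not above background on any array. Iigp1, an effector GTPase and the best studied of its family in mouse cells, had 4 probes, of which 1 was above background on naive 13 and another on Tpm 4. No level of these genes can be ordered between groups, and a probe below background does not show that the gene was silent.

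Other genes of the interferon-inducible GTPase families followed Tpm in part. Of 9 measured, 5 were higher in Tpm than in naive cells and 1 was lower, with a median difference of 1.14, where 8.68% of all genes were higher and 4.99% lower. Higher were Gvin1 (2.02), a very large GTPase, Gm12250 (2.00), which encodes the effector Irgb10, Gbp5 (1.34), Gbp10 (1.18) and Tgtp1 (1.14). Tgtp1 has a near-identical neighbour, Tgtp2, and Gbp10 and Gbp6 are close relatives, so their probes may share signal. The one that was lower was Mx2 (-1.71), an antiviral GTPase of the type I interferon response. Gm12250 was also called higher in Teff than in naive cells (1.25, adjusted p = 0.00913). Gvin1 was higher in memory than in naive cells as well (2.73, adjusted p = 7.59e-05), with its highest mean there, 12.42 against 11.71 in Tpm. Each was the only 1 of 9 higher in that comparison, against 13.8% and 5.78% of all genes, and 1 of 9 was lower in each. Against Teff, 2 of 9 were higher in Tpm (7.73% of all genes), Gvin1 (2.47, adjusted p = 5.09e-05) and Tgtp1 (1.45, adjusted p = 0.000705). The order of Tpm arrays differed between these genes: Tpm 14 was highest for Gbp10 (7.13) and Gm12250 (8.07) but lowest for Tgtp1 (6.29), and Gbp5 was highest on Tpm 4 (6.46). Against naive cells, Gbp10 lost its call without Tpm 14 (0.80), Tpm 15 (0.90) or naive 1, 2, 11 or 13, and Tgtp1 fell just short of 2-fold without Tpm 7.

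**Figure D4:**
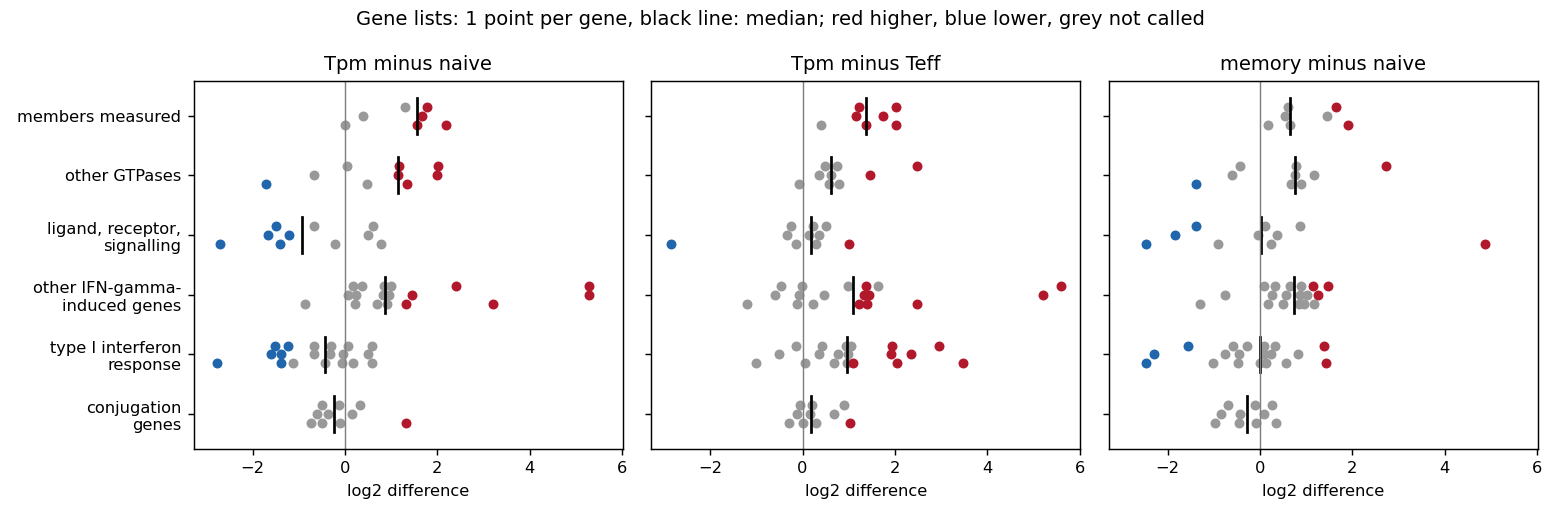
Log2 differences (horizontal axes) for genes of 6 sets (vertical axis) in Tpm against naive cells, Tpm against Teff and memory against naive cells, with 1 point per gene and black lines for medians. Red points are called higher and blue lower; the measured members have medians of 1.56, 1.38 and 0.66, and the signalling list holds more blue than red points against naive cells.

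Ifng was not higher in Tpm, where Igtp, Irgm2 and Gbp2 stood highest, but it was higher in memory cells. Ifng, the gene of interferon-gamma, was 4.95, 5.62, 4.20 and 4.39 on Tpm 4, 7, 14 and 15, the last 2 not above background. Naive cells ran from 4.84 to 6.22, while Teff ran from 7.29 to 7.89 and memory 3, 5 and 9 gave 10.13, 11.00 and 9.86. Tpm, with the highest means of Igtp, Irgm2 and Gbp2, thus had a mean of 4.79 for Ifng, and each of its arrays lay below every Teff and memory array. Tpm was lower in Ifng than Teff (log2 difference -2.85, adjusted p = 2.84e-06) and than memory cells (-5.54, adjusted p = 1.12e-08), and differed from naive cells by -0.67 (adjusted p = 0.134). Memory cells, in which Gbp3 and Gbp7 were higher than in naive cells, exceeded naive cells in Ifng by 4.87 (adjusted p = 1.48e-08). Of 10 ligand, receptor and signalling genes measured, 5 were lower in Tpm than in naive cells and 0 higher, with a median difference of -0.94: the receptor genes Ifngr2 (-1.67) and Ifngr1 (-1.50), the kinase gene Jak1 (-1.41), the phosphatase gene Ptpn2 (-1.20) and the feedback inhibitor gene Socs3 (-2.71). Of all genes, 4.99% were lower in that comparison. The Jak1 call was lost without Tpm 14, Tpm 15, naive 1 or naive 11 (-1.24 to -1.27). Teff was lower than naive cells in 4 of 10 and higher in 1, Ifng (2.18), against 11% and 13.8% of all genes. Irf1, a secondary factor of the pathway, was 12.65 to 12.93 in Tpm and 10.65 to 12.23 in Teff, higher by 1.02 (adjusted p = 0.00485), a call that was lost without Teff 17, the lowest array (0.74), or Tpm 14 (0.96), and 0.77 above naive cells (adjusted p = 0.03), short of 2-fold.

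Some interferon-gamma-induced genes outside the GTPase families were higher in Tpm. Of 18 measured, 6 were higher than in naive cells and 0 lower (median 0.87), and 8 were higher than in Teff and 0 lower (median 1.10), where 8.68% and 7.73% of all genes were higher. Against naive cells, 4 of 18 were higher and 1 lower in Teff, where 13.8% of all genes were higher and 11% lower. In memory cells 3 of 18 were higher and 0 lower, where 5.78% of all genes were higher and 7.22% lower. The chemokine gene Cxcl9 was 9.70, 10.41, 9.90 and 10.59 on Tpm 4, 7, 14 and 15 against 4.43 to 5.42 in naive cells, with memory 3 (8.16) standing apart from memory 5 and 9 (4.67 and 4.33). Irf8, a transcription factor of the interferon response, was higher in Tpm by 3.21. Another chemokine gene, Cxcl10, and Ubd, which encodes a ubiquitin-like modifier, were below background in all naive cells, and Tpm exceeded that bound by at least 3.89-fold and 29.5-fold. Wars, a tryptophan-tRNA synthetase, was higher by 1.33 (1.21 to 1.38 and not called without naive 2, 11 or 13 or Tpm 4, 14 or 15), and the immunoproteasome subunit gene Psmb9 by 1.45, the latter also in Teff (1.46) and memory cells (1.26). Tap2, a peptide transporter of the MHC class I pathway, was 0.95 above naive cells, short of 2-fold, and 1.33 above Teff.

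Genes of the type I interferon response were lower, not higher, in Tpm where they were called against naive cells. Of 19 measured, 0 were higher in Tpm and 6 lower (median -0.43, 4.99% of all genes lower), with Irf7 at -1.60. Ifit3, at -1.53, lost its call without naive 1, 2, 11 or 12 or Tpm 4, 7 or 14 (-1.22 to -1.65). Against Teff, 7 of 19 were higher and 0 lower, and Teff itself was lower than naive cells in 12 of 19 (11% of all genes). The calls of members and type I genes thus ran the same way against Teff and opposite ways against naive cells. Of 10 genes of the ubiquitin-like conjugation system that places these GTPases on vacuoles, 1 was higher in Tpm than in naive cells, Gabarapl1 (1.31), and 1 higher than in Teff, Atg7 (1.03). Both counts are near the shares of all genes, 8.68% and 7.73%, and Atg7 fell short of 2-fold without Tpm 15, Teff 16 or Teff 17.

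Markers of endothelial and stromal cells were also higher in Tpm. The summed corrected intensity of 15 measured endothelial markers was 4574 to 7780 on Tpm arrays, 285 to 784 on naive, 1207 to 1649 on Teff and 2041 to 3034 on memory arrays. All 15 were above background on at least 1 Tpm array, against 9 in naive cells, 7 in Teff and 9 in memory cells, while Kdr, Tie1, Flt4, Cd36 and Gpr182 of the same list were not kept. For 6 measured stromal markers the sums were 979 to 1984 in Tpm, 25.4 to 36.1 in naive cells, 24.7 to 32.3 in Teff and 32.0 to 285 in memory cells. Tpm 14, highest in Igtp, Irgm2, Gbp2 and Gbp3, had the lowest endothelial (4574) and stromal (979) sums of the 4 Tpm arrays. It also had the highest macrophage sum, 3707 over 8 markers, against 95.6 to 235 on the other Tpm arrays. Red blood cell markers, 5 measured, summed to 5894 to 35211 in naive and memory cells and to 14.9 to 31.4 in Teff and Tpm. Of natural killer cell markers, 2 were measured, with sums of 342 to 1051 in memory cells and 7.30 to 52.9 elsewhere, while Ncr1 and Klra8 were not kept. Of 8 dendritic cell markers 2 were kept, and their sums in Teff, 6.95 to 33.4, lay below those of all naive arrays. The values without Tpm 14 given above leave out the highest macrophage sum but keep the Tpm arrays with the higher endothelial and stromal sums. The part of other cells in the differences of the GTPases and of the other interferon-induced genes was not tested.

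Outside the list, the genes closest to the members' mean course were sought by the root mean square difference between mean-centred log2 profiles over 17 arrays. They were Cd52 (0.256), Tap2 (0.260), Hgsnat (0.271), Trim21 (0.278), Ifi27 (0.294) and Sting1 (0.296). Each had its highest mean in Tpm, and memory cells came next. The members themselves lay from 0.400 (Gbp3) to 0.799 (Ifi47) from their own mean. These distances cannot be compared with those of the outside genes, which were picked as the closest of all genes, while the members were chosen by name. Among members the closest pairs were Gbp2 with Irgm2 (0.450) and Igtp with Irgm2 (0.524). The farthest was Igtp with Gbp7 (1.36), whose promoter windows each hold both motifs.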

How the data were processed

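The RNA on each of the 17 Illumina mouse arrays, 1 per sample, was amplified and labelled with biotin, per the labels' protocols. The authors deposited linear signal intensities without normalization, per the file headers. Their second table also holds intensity values; its columns share 1 median (97.8) and the same sorted values to within 3.09 units, so it was quantile normalized on a linear scale, with no centring of genes.

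Here the mode of an array's signals gave its background mean, and the root mean square below that mode its SD. Signals were corrected with the normexp model, raised by 16, quantile normalized and log2 transformed. A probe counted as above background at 2.33 SD over the mode (one-sided p of 0.01). For a gene below background on every array of a group, the fold is a bound ("at least"), set against the lowest normalized value above background on each array, 4.69 to 5.06, or 6.42 on memory 5, or the gene's own value where higher.

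Of the probes, 34885 had 1 symbol in the platform annotation, 18 several and 10378 none, and the reference gene table changed 0 symbols. The brightest kept probe stood for its gene. limma (version 3.58.1, R version 4.3.3) fitted 1 mean per group over 17 arrays, two-sided, with Benjamini-Hochberg adjustment over 10246 genes in each of 6 comparisons, after it was tested on simulated data. The members, gene lists and tests were chosen with earlier results of these data known. All 10 members are named, with genes of 5 pathway lists and the 6 genes closest in course. The number of arrays limits the precision, and comparisons that name the same group share its arrays.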

Additional observations from a re-analysis of the deposited data

How the results depend on the processing

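No paired analysis was possible because the groups share no sample numbers, and a chip or scan block was not run because the column headers name none. In the comparisons among naive cells, Tpm and Teff, the higher calls of Igtp, Irgm2, Gbp2 and Gbp3 in Tpm held under all 27 alternatives, left-out arrays included, apart from single-probe fits. The smallest Tpm difference from naive cells under them was 1.98 for Igtp, 1.54 for Gbp3, 1.30 for Irgm2 and 1.09 for Gbp2. Members called lower in Teff than in naive cells went from 1 to 0 with an offset of 50, without background correction and with the authors' processed values, and with no minimum difference 2 were higher. With median scaling, members higher in memory than in naive cells went from 2 to 0, lower in Tpm than in memory cells from 1 to 0, and Teff against memory cells stood at 1 higher and 1 lower. The mean of all probes of a gene left 0 members lower in Tpm than in memory cells, a fit of only these groups left 1 higher, and without memory 3 and memory 5 Teff was lower than memory cells in 2. The cause was not tested. Leaving out single arrays gave 5 to 6 members higher in Tpm than in Teff, 2 to 3 higher in Tpm than in memory cells and 3 to 4 lower in Teff than in memory cells.

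Signs turned for differences that were small or involved memory cells. With median scaling, memory against naive cells became -0.47 for Gbp2, -0.56 for Igtp, -0.47 for Irgm1 and -0.56 for Irgm2, Tpm against memory cells 0.97 for Gbp3, 0.84 for Irgm1 and 0.96 for Ifi47, and Teff against memory cells 0.0539 for Gbp2, 0.40 for Irgm1 and 0.44 for Irgm2. The median of all genes moved under it from 0.00 to -0.14 in Teff against naive cells, from 0.04 to 0.14 in Tpm against Teff and from 0.14 to 0.27 in Tpm against memory cells. With the mean of all probes, Irgm1 was 0.0245 in Teff against naive cells and 0.27 in Tpm against memory cells, and Gbp3 0.0165 in the latter. The term for sample numbers gave 0.0343 for Irgm1 and 0.66 for Ifi47 in Tpm against memory cells. Second probes gave 0.15 for Gbp3 and 0.74 for Irgm1 there, and the dimmest Irgm1 probe 0.10 in Teff against naive cells, 0.28 in Tpm against memory cells and 0.0720 in Teff against memory cells. Over left-out arrays, Irgm1 in Teff against naive cells ran from -0.11 to 0.0898, Gbp7 in Tpm against naive cells from -0.0880 to 0.10, Irgm2 in memory against naive cells from -0.0534 to 0.42 and Ifi47 in Tpm against memory cells from -0.52 to 0.20. The term for sample numbers, the single-probe fits and the left-out arrays for genes that are not members were chosen after seeing the data. Dim signal limits Gbp4, Gbp6, Iigp1 and, in Teff, Gbp7.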
